A study of Mus musculus with 4 samples.

Results

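Sirt2, Sirt3 and Sirt6 are 3 of the 383 genes of a MERFISH panel, and were chosen as the listed gene columns, with earlier results of these data known. MERFISH is multiplexed fluorescence in situ hybridization that counts single RNA molecules in tissue and assigns them to segmented cells. The data are 4 coronal brain sections at the level of the striatum, each a bilateral slice of mouse brain cut at 10 µm. The Young group holds 2 sections from mice of 2 months and the Aged group holds 2 sections from mice of 18 months. The mice were of the C57BL/6NTac strain with no treatment or transgene named, and the labels give neither the sex nor the animal of a section. The p-values therefore rest on the spread between these sections, which the fits pool in part or in full over genes.

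Sirtuins are enzymes that use NAD, the carrier of electrons in metabolism, to take acetyl and other acyl groups off proteins. Sirt2 lies mostly in the cytoplasm, acts on tubulin among other proteins, and is known as an abundant protein of oligodendrocytes and myelin. Sirt3 is a deacetylase of the mitochondrial matrix, where it acts on metabolic enzymes, and Sirt6 is a nuclear enzyme of chromatin that acts on histones and takes part in DNA repair and glucose metabolism. Oligodendrocytes make the myelin around axons, and they arise from precursors that express the growth factor receptor Pdgfra, pass through a committed stage marked by the receptor Gpr17, and then switch on myelin genes.

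On GRCm38 the gene Sirt2 (ENSMUSG00000015149) lies on the plus strand at chr7:28766735-28788661, and its principal transcript has 16 exons and a coding sequence of 1167 bases. Sirt3 (ENSMUSG00000025486) lies on the minus strand at chr7:140863666-140882309, with 7 exons and 771 coding bases. Sirt6 (ENSMUSG00000034748) lies on the minus strand at chr10:81621785-81627797, with 8 exons and 1002 coding bases. Genes on the opposite strand overlap Sirt2 (Nfkbib) and Sirt3 (Ric8a and Psmd13), and none overlaps Sirt6.

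The members belong to 1 gene family, so their coding sequences were compared with each other. The longest run of identical bases was 12 between Sirt2 and Sirt3, 11 between Sirt2 and Sirt6 and 14 between Sirt3 and Sirt6. The most alike stretch of 90 bases, 63 of which are identical (70.0%) between Sirt2 and Sirt3, encodes part of the catalytic core. It covers coding bases 269 to 358 of Sirt2 and 26 to 115 of Sirt3, and is shown beside the aligned bases 173 to 262 of Sirt6. Capitals mark bases that Sirt2 and Sirt3 share, and in Sirt6 the bases that all 3 genes share.
Sirt2: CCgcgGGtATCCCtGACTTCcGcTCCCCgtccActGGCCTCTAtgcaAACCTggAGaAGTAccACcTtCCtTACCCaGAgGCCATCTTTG
Sirt3: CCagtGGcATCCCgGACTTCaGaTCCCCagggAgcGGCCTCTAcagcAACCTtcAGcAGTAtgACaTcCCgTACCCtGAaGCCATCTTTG
Sirt6: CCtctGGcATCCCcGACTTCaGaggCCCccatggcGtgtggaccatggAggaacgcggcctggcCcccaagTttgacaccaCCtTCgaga
The printed Sirt2 and Sirt6 stretches shared 29 of 90 bases (32.2%). The most alike stretches of 90 bases, which start elsewhere, shared 48 (53.3%) for Sirt2 with Sirt6 and 50 (55.6%) for Sirt3 with Sirt6. The bases were read from the GENCODE transcripts of the reference. The probe sequences of the panel were not used here.

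The sections held 73872 to 88584 segmented cells and 18816375 to 36116711 transcripts each, and 281824 of 320663 cells passed the filters of at least 10 genes and 50 cubic micrometres. The median count per kept cell was 400 and 325 in the Young and 215 and 293 in the Aged sections, so Aged replicate 1 was the shallowest. Clustering without the sirtuins and the other listed pathway genes gave 7 classes, named from markers: 93424 neuron-like, 74159 medium spiny neuron-like, 37137 vascular-like, 32022 oligodendrocyte-like, 27786 astrocyte-like, 10274 microglia-like and 7021 precursor-like cells, and 1 cell that stayed unnamed. The precursor-like cluster was led by Gpr17, Pdgfra, C1ql1 and Olig1, and the oligodendrocyte-like cluster by Cldn11, Mag, Trf and Mal. Cells with at least 3 detected markers of their own class and at least 3 of another, 135925 in all, were left out as mixed, and this took 66.3 to 73.3% of the precursor-like cells of a section. Cells with fewer than 3 markers of their own class stayed in whatever else they held, and 29.6 to 41.3% of the precursor-like cells kept had at least 3 markers of another class. No cell identifier was shared between sections.

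Sirt2 was the member with the strongest class pattern. Levels here are transcripts per 10000 panel transcripts of the class, and since the number of probes per gene is not in the files, levels of different genes are not set against each other. In the precursor-like cells Sirt2 stood at 324 and 309 in the Young and at 82.2 and 131 in the Aged sections, from 2402, 2881, 423 and 549 counted transcripts. In the oligodendrocyte-like cells it stood at 87.1 and 113 in the Young and 53.7 and 82.4 in the Aged sections. Precursor-like cells were above oligodendrocyte-like cells in each of the 4 sections, although their ranges over sections overlapped.

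The other classes held far less Sirt2. The mean over the 4 sections was 19.4 ± 3.67 (SD, n = 4) in astrocyte-like, 18.6 ± 2.43 in microglia-like and 11.95 ± 2.33 in vascular-like cells. It was 10.5 ± 2.24 in neuron-like cells and 7.77 ± 0.909 in medium spiny neuron-like cells, against 212 ± 123 in precursor-like and 84.0 ± 24.3 in oligodendrocyte-like cells. Of the 6 neighbours in this order, oligodendrocyte-like over astrocyte-like cells and microglia-like over vascular-like cells did not overlap between sections, and the other 4 pairs did. With the mixed cells kept, oligodendrocyte-like cells came first at 74.1 ± 21.2 and precursor-like cells followed at 68.5 ± 29.9, so the first place rested on leaving out mixed cells. With every cell left out that had at least 3 markers of another class, the classes stood at 89.2 ± 38.9 and 84.2 ± 24.3, precursor-like cells were higher in 2 of 4 sections, and the 5 other classes stayed between 7.70 and 19.4. Aged replicate 1 had the lowest Sirt2 level of the 4 sections in all 7 classes.

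**Figure D1:**
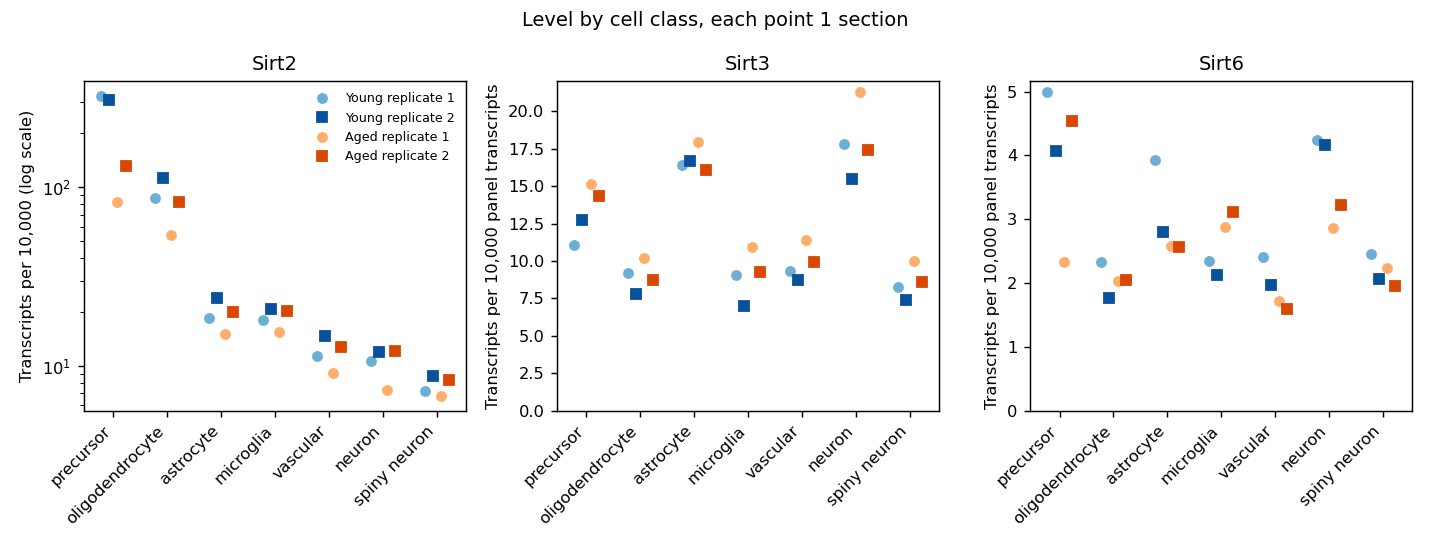
Transcripts of Sirt2, Sirt3 and Sirt6 per 10000 panel transcripts (vertical axis, on a log scale for Sirt2) in each of the 7 cell classes, with 1 point per section and Young sections in blue, Aged in orange. Sirt2 is highest in the precursor-like and then the oligodendrocyte-like cells, with the 2 Aged precursor-like points (82.2 and 131) below both Young points (324 and 309), while Sirt3 is highest in neuron-like and astrocyte-like cells.

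A cell of great depth shows a gene more often, so shares of cells with a Sirt2 transcript were taken after each cell was thinned to 100 transcripts, which left 219 of 494 and 263 of 668 Young and 165 of 533 and 143 of 433 Aged precursor-like cells. These deeper cells were another mix, with 69.4, 65.4, 37.6 and 27.3% Gpr17-higher cells (more Gpr17 than Pdgfra transcripts) against 53.8, 49.9, 30.4 and 23.1% before. The share was 68.9 and 71.1% of Young and 31.5 and 45.5% of Aged precursor-like cells. It was 53.0 and 60.9% of Young and 37.9 and 54.8% of Aged oligodendrocyte-like cells, and 7.34, 8.84, 6.98 and 8.12% of medium spiny neuron-like cells. Before thinning the precursor-like shares were 50.2, 49.9, 27.4 and 35.1%. The medium spiny neuron-like cells, much deeper, showed 26.3, 25.4, 15.2 and 22.4%. All of these lay above the genes used as a background, of which little is known in healthy brain: in medium spiny neuron-like cells their median level was 0.425 to 0.607 per 10000 and their highest 1.07 to 1.79, against 6.79 to 8.73 for Sirt2.

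The 2 lineage classes held more of all Sirt2 counted than their share of the cells, while neuron-like cells held the largest part. Neuron-like cells held 34.6, 36.4, 30.9 and 38.7% of Sirt2 transcripts with 44.1 to 50.5% of all panel transcripts, and medium spiny neuron-like cells 14.3 to 18.5% with 26.7 to 34.4%. The oligodendrocyte-like cells, with 9.25 to 13.6% of the kept cells and 5.48 to 8.41% of panel transcripts, held 25.1 and 25.6% of Sirt2 transcripts in the Young and 29.8 and 27.9% in the Aged sections. The precursor-like cells, with 2.17 to 2.83% of the cells and 1.65 to 1.94% of panel transcripts, held 8.45 and 9.21% in the Young and 5.12 and 4.30% in the Aged sections. These shares count mixed cells too.

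Sirt3 followed another order. It was highest in neuron-like cells, at 17.8 and 15.5 per 10000 in the Young and 21.3 and 17.4 in the Aged sections, with astrocyte-like cells next at 16.4, 16.7, 18.0 and 16.1. These first 2 classes overlapped, and astrocyte-like cells did not overlap with the precursor-like cells below them, which held 11.1, 12.8, 15.2 and 14.3. The remaining 4 classes lay close together, from a mean of 9.84 ± 1.16 (SD, n = 4) in vascular-like down to 8.55 ± 1.09 in medium spiny neuron-like cells, and no neighbours among them were apart. Oligodendrocyte-like cells, second for Sirt2, were sixth of 7 for Sirt3 at 8.99 ± 1.01. With the mixed cells kept, astrocyte-like cells came first for Sirt3 at 18.6 ± 1.10 and neuron-like cells followed at 18.0 ± 2.26, so the first place depended on leaving out mixed cells. Neuron-like cells held 57.3 to 63.2% of all Sirt3 transcripts of a section, with 30.9 to 34.9% of the cells and 44.1 to 50.5% of all panel transcripts.

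Sirt6, the nuclear member, showed no neighbouring classes apart from each other. Its mean ran from 3.98 ± 1.16 per 10000 (SD, n = 4) in precursor-like and 3.63 ± 0.687 in neuron-like cells down to 1.92 ± 0.354 in vascular-like cells, and all 6 pairs of neighbours in that order overlapped between sections. The precursor-like values of 4.99, 4.07, 2.33 and 4.53 rested on 37, 38, 12 and 19 transcripts. In that class the highest of the background genes stood at 2.04 to 4.27, above Sirt6 in Aged replicate 1 and below it in the other 3 sections. The vascular-like values were below the highest background gene in Young replicate 1 and Aged replicate 2, and the neuron-like value in Young replicate 1. Neuron-like cells held 49.8 to 64.2% of Sirt6 transcripts, with 44.1 to 50.5% of all panel transcripts.

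The panel genes whose levels most resembled each member across the 28 values of 7 classes in 4 sections were picked by Pearson's r of log2(level + 1), a description over points that share sections and depth. Olig1, a transcription factor of the oligodendrocyte lineage, was nearest to Sirt2 at 0.947, followed by Marcksl1 at 0.895, S100b at 0.882, Phldb1 at 0.881 and Ifi27 at 0.863. For Sirt3 they were Pou3f2 (0.798), Id2 (0.774), Rorb (0.773), Rsph9 (0.751) and Tubb4b (0.749). For Sirt6 r was lower, with Ect2 at 0.689, Dpysl3 at 0.645, Sox4 at 0.616, Gng3 at 0.611 and Cntn1 at 0.609. Among the members themselves r was −0.05 for Sirt2 with Sirt3, 0.326 for Sirt2 with Sirt6 and 0.556 for Sirt3 with Sirt6.

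With age, Sirt2 fell in the precursor-like cells and passed the test in no other class. From the values above, the log2 fold change of 18 over 2 months was −1.76 ± 0.196 (SE, n = 2 sections per age), a 3.39-fold lower level, with an adjusted p of 2.98e-16 by the quasi-likelihood test of edgeR, Benjamini-Hochberg adjusted over 296 genes. In that class 33 genes passed, 12 higher and 21 lower, which is 11.1% of those tested. The fit took 1 common spread for all genes of the class, with 592 degrees of freedom, so the spread behind this p was pooled over genes. It is not the spread of Sirt2 alone, and with a block for the replicate number the adjusted p was far larger, as given in the last paragraph. The Young and Aged values did not overlap. Leaving out each section in turn gave −2.07 to −1.51, and the largest adjusted p among them was 5.66e-08. With the mixed cells kept the change was −1.11, adjusted p = 8.63e-09 by edgeR. With every cell left out that had at least 3 markers of another class, the levels were 120 and 124 in the Young and 45.4 and 67.4 in the Aged sections, and the change was −1.17, adjusted p = 1.62e-06 by edgeR. The mean count per precursor-like cell was 4.86 and 4.31 in the Young and 0.794 and 1.27 in the Aged sections.

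In the oligodendrocyte-like cells the Sirt2 difference was −0.66 ± 0.235 (SE) and did not pass, with an unadjusted p of 0.0183 and an adjusted p of 0.146 by edgeR, where 17 of 379 genes passed (4.49%). The Young sections (87.1 and 113) lay above both Aged sections (53.7 and 82.4), by a narrow margin between Young replicate 1 and Aged replicate 2. Without Young replicate 1 the difference was −0.85 (adjusted p = 0.0200) and without Aged replicate 2 it was −0.96 (adjusted p = 0.0324), both by edgeR and both past the threshold. Without Aged replicate 1 it was −0.35 and without Young replicate 2 −0.42, and neither passed. When mixed cells were kept it was −0.58 and passed, adjusted p = 0.0211 by edgeR.

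The age change of Sirt2 in precursor-like cells was larger than that in oligodendrocyte-like cells when the difference itself was tested. The interaction of age and class was −1.16 ± 0.202 on the log2 scale, adjusted p = 8.66e-04 by edgeR, where 29 of 379 genes passed (7.65%). The same test of Sirt2 in the other classes against oligodendrocyte-like cells gave 0.37 for astrocyte-like (11.5% of genes passed), 0.39 for microglia-like (7.61%), 0.48 for vascular-like (6.27%), 0.56 for medium spiny neuron-like (9.14%) and 0.36 for neuron-like cells (8.62%). None of these 5 passed, and the lowest adjusted p by edgeR was 0.0521, for medium spiny neuron-like cells. With every cell left out that had at least 3 markers of another class, the Sirt2 interaction of precursor-like with oligodendrocyte-like cells was −0.42 ± 0.181 and no longer passed, adjusted p = 0.360 by edgeR. For Sirt3 the interaction of precursor-like with oligodendrocyte-like cells was 0.01 ± 0.254 and for Sirt6 −0.57 ± 0.401, and neither passed.

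**Figure D2:**
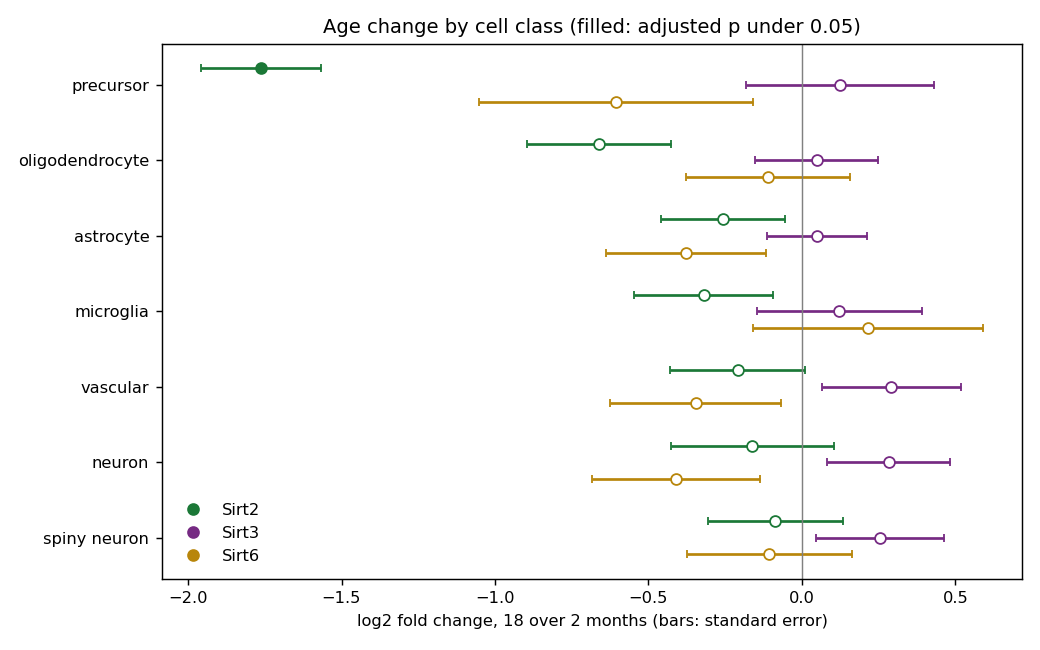
Log2 fold change of 18 over 2 months (horizontal axis) for Sirt2, Sirt3 and Sirt6 in each of the 7 classes, with bars for the standard error of edgeR's fit and filled points for an adjusted p under 0.05. The only filled point is Sirt2 in the precursor-like cells, at −1.76.

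In the remaining 5 classes Sirt2 gave −0.26 ± 0.202 in astrocyte-like (2.67% of genes passed), −0.32 ± 0.227 in microglia-like (0.602%), −0.21 ± 0.220 in vascular-like, −0.09 ± 0.219 in medium spiny neuron-like and −0.16 ± 0.266 in neuron-like cells. In the last 3 classes edgeR called 0 of 383 genes (0.0%), with 24, 30 and 13 genes at an unadjusted p under 0.05. There DESeq2 called 0, 1 and 1 genes and limma 0, 0 and 0. The 95% intervals of the Sirt2 change ran from −0.64 to 0.22, from −0.57 to 0.39 and from −0.75 to 0.43 in these 3 classes.

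Neither Sirt3 nor Sirt6 passed the test in any of the 7 classes. The Sirt3 estimates were all above 0, from 0.05 ± 0.200 in oligodendrocyte-like cells to 0.29 ± 0.227 in vascular-like cells, with 0.12 ± 0.307 in precursor-like and 0.28 ± 0.200 in neuron-like cells. When transcripts were counted per cell volume in place of per panel transcript, all 7 Sirt3 estimates were below 0, between −0.49 and −0.18, so the sign followed the scaling. The Sirt6 estimates were −0.61 ± 0.445 in precursor-like, −0.41 ± 0.273 in neuron-like, −0.38 ± 0.261 in astrocyte-like and −0.35 ± 0.279 in vascular-like cells, and 0.22 ± 0.376 in microglia-like cells. In the precursor-like cells the 95% interval ran from −0.48 to 0.73 for Sirt3 and from −1.48 to 0.27 for Sirt6.

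The precursor-like cells hold more than 1 stage, and Sirt2 differed between them. Cells with more Gpr17 than Pdgfra transcripts, the committed stage by these 2 markers, held Sirt2 at 425 and 418 per 10000 in the Young and 176 and 340 in the Aged sections. Cells with more Pdgfra than Gpr17 held 45.001, 48.5, 28.2 and 48.6, so each section showed the same order with no overlap. The log2 difference was 3.17 ± 0.195, a 9.003-fold higher level in Gpr17-higher cells, with an adjusted p of 1.13e-06 by edgeR with the section as a block, where 65 of 244 genes passed (26.6%). The median cell held 78.0 to 119 transcripts in the Gpr17-higher and 67.0 to 76.0 in the Pdgfra-higher cells. With mixed cells kept the levels were 181, 200, 60.2 and 109 against 34.6, 42.0, 26.2 and 39.9, and the difference was 1.91, adjusted p = 1.52e-04 by edgeR. With every cell left out that had at least 3 markers of another class it was 1.95, adjusted p = 1.58e-07 by edgeR.

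Within this split, with mixed cells left out, the myelin genes tested were higher in the same cells as Sirt2. All 6 of the 7 listed mature oligodendrocyte genes that could be tested were higher in the Gpr17-higher cells, among them the tight junction gene Cldn11 by 5.92, the myelin adhesion gene Mag by 4.79, Tspan2 by 1.71 and Mobp by 1.52 on the log2 scale. The list median was 1.64, against −0.04 over all genes tested. All of the 7 listed genes but Trf, namely Cldn11, Mag, Mobp, Mal, Opalin and Tspan2, were also markers that decided which cells were left out as mixed. Precursor-like cells rich in such markers were kept only with few precursor markers, Pdgfra and Gpr17 among these. The rule on mixed cells therefore bears on these differences, which cannot show by themselves that the myelin genes go with the stage. Nampt, the rate-limiting enzyme of NAD salvage, was higher by 0.69 (adjusted p = 0.0306 by edgeR). It was the only one of 4 tested NAD genes to pass, in a split where 65 of all 244 genes tested passed (26.6%). Sirt3 differed by −0.20 ± 0.210 and Sirt6 by −0.06 ± 0.367, and neither passed. Sirt3 stood at 9.21, 11.5, 15.4 and 12.5 in the Gpr17-higher and at 15.8, 16.8, 16.6 and 14.7 in the Pdgfra-higher cells. None of the other sirtuins Sirt4, Sirt5 and Sirt7 passed, and none of the 4 listed transcription factors did.

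**Figure D3:**
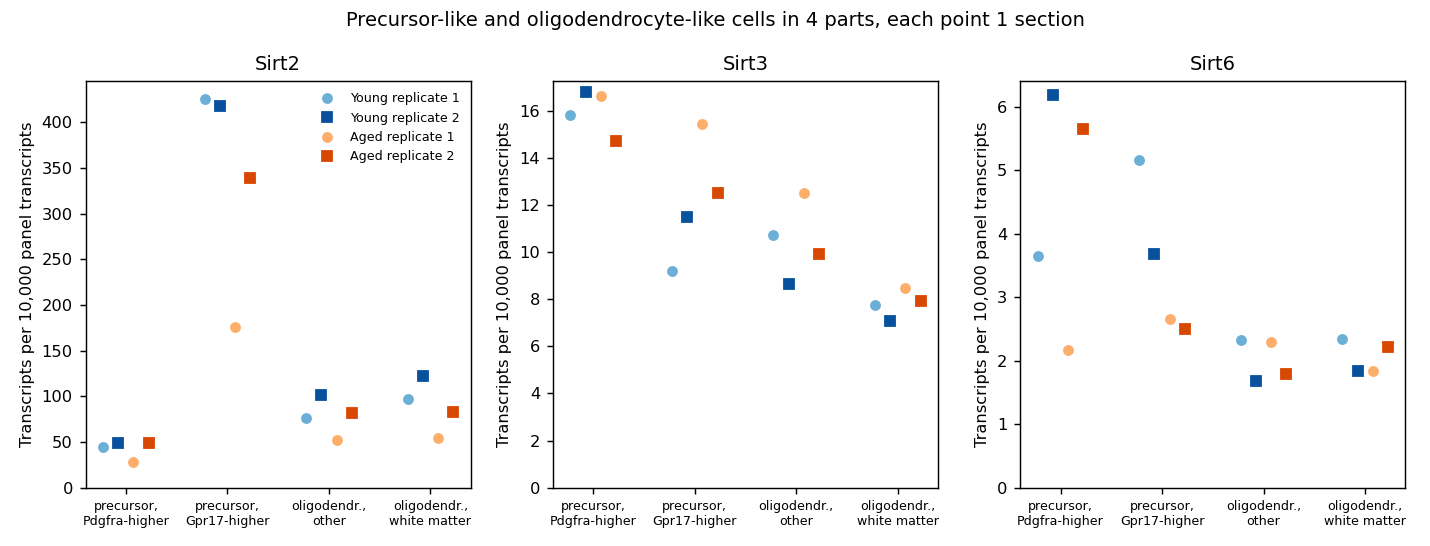
Transcripts of Sirt2, Sirt3 and Sirt6 per 10000 panel transcripts (vertical axis) in precursor-like cells with more Pdgfra or more Gpr17 and in oligodendrocyte-like cells outside and inside the white matter zone, with 1 point per section. Sirt2 is highest in the Gpr17-higher cells (176 to 425) and lowest in the Pdgfra-higher cells (28.2 to 48.6), while Sirt3 lies between 7.07 and 16.8 in all 4 parts.

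With mixed cells left out, Sirt2 went with the Gpr17 count of a cell in steps. In precursor-like cells with no Gpr17 transcript it stood at 41.2, 52.0, 26.6 and 43.9 per 10000 in Young replicates 1 and 2 and Aged replicates 1 and 2. With 1 to 2 Gpr17 transcripts it stood at 90.6, 90.1, 35.6 and 65.8, and with 3 to 9 at 198, 280, 59.5 and 62.9. With 10 or more it reached 478, 433, 244 and 446. The level went up at each step except in Aged replicate 2, from 65.8 to 62.9. When mixed cells were kept the steps below 10 Gpr17 transcripts were smaller, and some went down. There cells with no Gpr17 stood at 29.7, 49.1, 24.7 and 43.7, those with 1 to 2 at 46.3, 50.3, 23.7 and 41.4, and those with 3 to 9 at 46.4, 61.5, 28.2 and 37.2. The bin of 10 or more, at 126, 143, 60.03 and 77.4, lay above the others of its section, at a lower level than without mixed cells.

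A large part of the Sirt2 of the class came from a small set of cells with oligodendrocyte markers. Of the precursor-like cells kept, 98, 129, 29 and 28 in Young replicates 1 and 2 and Aged replicates 1 and 2 held at least 3 of the oligodendrocyte markers. They made up 19.8 and 19.3% of the class in the Young and 5.44 and 6.47% in the Aged sections, with no overlap and an exact permutation p of 0.333 (two-sided). Their Sirt2 level was 545 and 514 in the Young and 348 and 510 in the Aged sections, and they held 76.9, 75.8, 48.5 and 58.8% of the Sirt2 transcripts of the class. Gpr17 stood at 760, 759, 955 and 771 per 10000 in these cells and Pdgfra at 19.2, 3.53, 22.1 and 33.1. Such cells were kept only with fewer than 3 precursor markers, Pdgfra and Gpr17 among these, so the rule on mixed cells bears on what these cells hold. Their median depth of 161 to 286 transcripts was above the 64.0 to 73.0 of the other precursor-like cells, and the part of merged cells in these values was not tested.

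The remaining precursor-like cells, with under 3 oligodendrocyte markers, also held less Sirt2 in the Aged sections. They stood at 138 and 137 in the Young and 47.8 and 63.5 in the Aged sections, a log2 fold change of −1.34 ± 0.206, adjusted p = 2.84e-06 by edgeR, where 5 of 263 genes passed (1.9%). Their mix of stages differed too, with 44.2 and 39.0% Gpr17-higher cells in the Young and 28.4 and 19.5% in the Aged sections. The part of this mix in the change was not tested. In the cells with at least 3 of these markers the change was −0.56 ± 0.213 and did not pass, adjusted p = 0.240 by edgeR. There edgeR called 0 of 197 genes (0.0%), with 32 at an unadjusted p under 0.05. The groups rest on cells chosen after the levels were seen, and the difference between their age changes was not tested.

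The mix of stages also differed between the ages. Gpr17-higher cells made up 53.8 and 49.9% of the precursor-like cells in the Young and 30.4 and 23.1% in the Aged sections, with no overlap and an exact permutation p of 0.333 (two-sided), the smallest that 2 sections against 2 can give. The shares with mixed cells kept were 38.0 and 34.8% against 27.9 and 18.0%. The Gpr17-higher cells held 96.1 and 94.7% of the Sirt2 of the class in the Young and 78.3 and 74.1% in the Aged sections.

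In the Gpr17-higher cells the call of the Sirt2 age change depended on which cells were kept, and in the Pdgfra-higher cells it passed under none of these choices. In the Pdgfra-higher cells the change was −0.38 ± 0.288 (adjusted p = 0.693 by edgeR) and in the Gpr17-higher cells −0.88 ± 0.312 (adjusted p = 0.221), and neither passed. In each of these fits edgeR called no gene, 0 of 232 and 0 of 239 (0.0%), though 23 and 37 had an unadjusted p under 0.05. With both stages in 1 fit and the stage as a term the change was −0.66 ± 0.249, adjusted p = 0.251 by edgeR, where 1 of 234 genes passed (0.427%). The part of the shift between stages in the decline over the whole class was not tested.

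With every cell left out that had at least 3 markers of another class, Gpr17-higher cells stood at 221 and 230 in the Young and 73.1 and 135 in the Aged sections, from 58 to 147 cells a section. There the change was −1.33 ± 0.301 and passed, adjusted p = 0.00330 by edgeR, with 2 of 144 genes called (1.39%). Pdgfra-higher cells stood at 46.1, 53.3, 31.0 and 48.1, a change of −0.35 ± 0.224 that did not pass (1.62% of genes passed). With mixed cells kept, which leaves more cells per stage, Sirt2 in the Gpr17-higher cells was lower with age by −1.25 ± 0.238 on the log2 scale, adjusted p = 0.00625 by edgeR, where 4 of 359 genes passed (1.11%). That call was lost in each of the 4 fits that left out a section, with changes of −1.67 to −0.90. In the Pdgfra-higher cells with mixed cells kept the change was −0.19 ± 0.173 and did not pass (2.13% of 376 genes passed). The difference in age change between the stages was −0.55 ± 0.257, adjusted p = 0.206 by edgeR (8.61% of genes passed). In the Pdgfra-higher cells alone the Sirt2 interaction with oligodendrocyte-like cells was 0.22 ± 0.255 and did not pass.

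**Figure D4:**
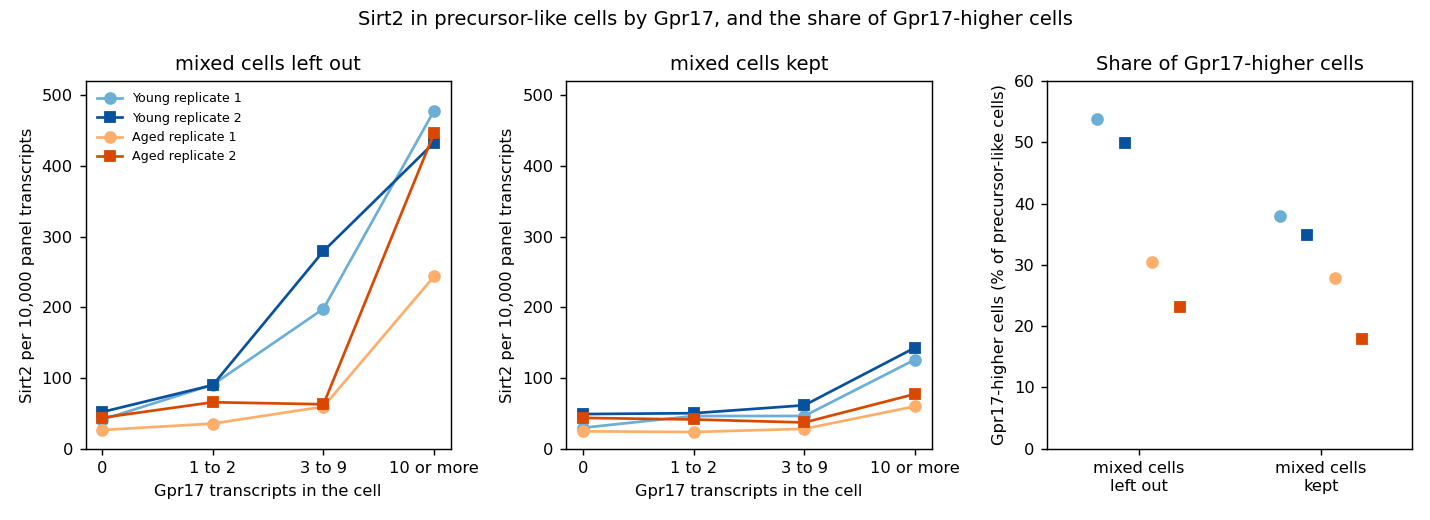
Sirt2 transcripts per 10000 panel transcripts (vertical axis) of precursor-like cells with 0, 1 to 2, 3 to 9 and 10 or more Gpr17 transcripts, mixed cells left out or kept, and on the right the share of precursor-like cells with more Gpr17 than Pdgfra, all with 1 line or point per section. Sirt2 reaches 244 to 478 in the highest bin without mixed cells and 60.03 to 143 with them, and the share is 49.9 to 53.8% in the Young and 23.1 to 30.4% in the Aged sections.

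Some mature oligodendrocyte genes went the same way with age in the precursor-like cells kept. Of the 7 genes 4 fell and none rose, namely Cldn11 by −2.56, Mag by −2.55, Mobp by −1.60 and Tspan2 by −1.30, while Mal (0.10), Trf (0.01) and Opalin (0.44) did not pass. These 4, like Mal and Opalin, were also markers of the rule on mixed cells, so the rule bears on these calls. Kept cells with at least 3 oligodendrocyte markers made up 19.8 and 19.3% of the class in the Young and 5.44 and 6.47% in the Aged sections. Their part in the 4 calls was not tested. The list median was −1.30, against 0.02 over all 296 genes, of which 21 were lower and 12 higher. In precursor-like cells with under 3 markers of every other class, Mag stood at 11.6 and 3.43 in the Young and 8.85 and 5.58 in the Aged sections. There Mobp stood at 8.05, 7.20, 6.93 and 4.56 and Cldn11 at 16.1, 8.91, 4.62 and 8.11. Those cells were picked in part by these markers, and the age changes of these genes in them were not tested. In the oligodendrocyte-like cells themselves 0 of the 7 passed. Of the pathway genes in the panel, none of the other sirtuins (Sirt4, Sirt5 and Sirt7), of the 7 genes of NAD synthesis and use, or of the 4 transcription factors passed in the age test of any class by edgeR.

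Within the precursor-like cells Sirt2 was also read by place. In the white matter zone, where at least 40% of the cells within 150 µm were oligodendrocyte-like, the level was 469 and 413 in the Young and 138 and 178 in the Aged sections, from 43 to 82 cells a section. In the striatal zone, set in the same way by medium spiny neuron-like cells, it was 282, 319, 86.8 and 133. The Aged values lay below the Young in both places, and the striatal fit gave −1.57 ± 0.254 with age, adjusted p = 7.19e-04 by edgeR. Both places are parts of the same kept cells, with none left out for its oligodendrocyte markers. They are therefore no separate support for the decline over the whole class, and the part of those cells in it was not tested by place.

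Oligodendrocyte-like cells in the white matter zone were compared with the others of the same section. Sirt2 stood at 97.2, 123, 54.5 and 82.4 in the zone and at 76.5, 102, 52.6 and 82.3 outside it. On this scale, per panel transcript, the Young sections differed and the Aged sections hardly did. That contrast of the ages depended on the scaling, and the interaction of age and zone under both scalings is given below. The fit with the section as a block gave 0.50 ± 0.1002, adjusted p = 0.00110 by edgeR, where 144 of 369 genes passed (39.0%). Scaled by total transcripts alone it was 0.17 with an adjusted p of 0.104. The choice of scaling moved the median of all genes from 0.14 to −0.20, and against that median Sirt2 was higher by 0.36 and 0.37. Of the 7 mature oligodendrocyte genes 5 were higher in the zone.

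Sirt3 leaned the other way between these places, with 7.77, 7.07, 8.47 and 7.91 per 10000 in the white matter zone and 10.7, 8.63, 12.5 and 9.93 outside it, lower in the zone in 4 of 4 sections. The log2 difference was −0.07 ± 0.126 with TMM scaling and did not pass, and −0.41 with an adjusted p of 0.0169 by edgeR on total transcripts. Against the median of all genes it was −0.21 under both. Sirt6 differed by 0.37 ± 0.193 and did not pass. The interaction of age and zone was −0.01 for Sirt2 with TMM scaling, where 15.7% of genes passed, and −0.28 with an adjusted p of 0.0425 by edgeR on total transcripts.

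Nearby oligodendrocytes can add transcripts to other cells, so Sirt2 was followed in astrocyte-like cells by the share of oligodendrocyte-like cells within 150 µm. It went from 16.8, 23.1, 13.7 and 19.3 per 10000 where that share was under 5% to 27.2, 33.4, 16.1 and 22.001 where it was at least 40%. Mobp, a myelin gene, went from 2.70, 1.65, 1.82 and 2.10 to 13.4, 11.7, 8.88 and 6.40 in the same cells. Both were higher near oligodendrocytes in 4 of 4 sections, and the part of carried-over transcripts in the astrocyte-like Sirt2 level was not tested.

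Sirt2 and Sirt3 were also read in parts of 2 other classes. Sirt2 stood at 6.62 to 8.50 in medium spiny neuron-like cells with more Drd1 and at 6.37 to 8.35 in those with more Drd2, the receptors of the direct and indirect pathway. Sirt3 was higher in the Drd1 than in the Drd2 cells in 4 of 4 sections, at 8.59, 7.76, 9.88 and 8.94 against 7.55, 6.51, 9.38 and 7.59. In vascular-like cells Sirt2 was 12.1, 15.4, 9.68 and 14.1 in cells with more mural markers and 10.3, 11.6, 7.93 and 10.4 in those with more endothelial markers. Sirt6 was 2.05 to 2.64 in the Drd1 and 1.82 to 2.14 in the Drd2 cells, and 1.61 to 2.29 in the mural and 1.63 to 2.66 in the endothelial cells. Mural cells were thus above endothelial cells for Sirt2 in 4 of 4 sections, and these splits were not tested.

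The other sirtuins and the NAD genes of the panel had other class orders. Sirt7, a nucleolar sirtuin, was highest in microglia-like cells at 25.5 ± 4.91 per 10000 (SD, n = 4), with 19.6 ± 4.24 in astrocyte-like, 16.6 ± 2.33 in precursor-like and 15.9 ± 2.68 in oligodendrocyte-like cells. The mitochondrial sirtuins Sirt4 and Sirt5 were highest in astrocyte-like cells, at 8.30 ± 1.45 and 6.44 ± 1.11. Each of these 3 first places overlapped between sections with the class below it, which was the precursor-like class at 7.04 ± 1.16 for Sirt4 and 5.001 ± 1.85 for Sirt5. Nampt was highest in vascular-like cells at 48.3 ± 6.57, followed by oligodendrocyte-like cells at 38.9 ± 7.39. The NAD-consuming enzyme Cd38 was at 13.7 ± 3.67 in astrocyte-like cells and at 0.324 ± 0.0293 in oligodendrocyte-like cells, and the NAD kinase Nadk was highest in astrocyte-like cells at 33.8 ± 3.13.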

How the data were processed

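The authors imaged 4 coronal sections by MERFISH with a panel of 383 genes, decoded the images with MERLIN, segmented cells and deposited, per section, counts of transcripts per cell and gene with each cell's volume, position and identifier. The counts are raw. The deposited volume is a signal in cubic micrometres, and a deposited table of mean signal per gene served to check the counts, which matched it within 4.7e-09. A genome build for the probe design was not given in the sources used here. In the Young files the identifiers carry other section numbers than the titles, and groups were taken from the titles and age labels.

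Cells with at least 10 genes and 50 cubic micrometres were kept. Counts were scaled to 10000 per cell, logged and reduced to 15 principal components without 17 genes (the sirtuins, the NAD genes and the transcription factors), and clustered on 20 neighbours by the Louvain method (resolution 0.08) with Python 3.11.15, igraph 0.11.9, scikit-learn 1.9.0 and scipy 1.17.1. Clusters were named from listed markers. A cell with 3 or more detected markers of its own class and 3 or more of another was called mixed and left out. No doublet caller was run, since segmented cells are not droplets. Zones were set by 40% of one class within 150 µm.

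Counts were summed per section and class, which makes the sections the replicates (2 per age), and tested in R 4.3.3 with edgeR 4.0.16 (filterByExpr, TMM, quasi-likelihood test), with Benjamini-Hochberg adjustment over all panel genes tested and a threshold of 0.05. Standard errors are the log2 fold change divided by the square root of F, and intervals use the t quantile at the degrees of freedom of the fit. Age was the only term of the age tests, and the section was a block where parts of 1 section were compared. Counts drawn by simulation for the age test of 382 genes in oligodendrocyte-like cells, 199 of them changed, gave 80.9% recovered by edgeR (96.2% of changes of 2-fold or more) and 1 false call. In the precursor-like cells 71.7% of 152 changed genes were recovered (89.4% of 2-fold or more), with 1 false call. The simulation gave every gene the same fixed spread, which was not estimated from these sections. These rates therefore check the code and do not measure the power of the tests on the real counts.

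DESeq2 1.42.0, limma 3.58.1, other scalings, filters, clusters, mixed rules and zones, thinned cells, sections left out and a replicate block were tried as alternatives. Alternatives on the 2 precursor stages, on oligodendrocyte markers in precursor-like cells, without any cell with 3 markers of another class, age by zone or stage, the crossed block and total-transcript scaling of the splits were chosen after seeing the data. The members and gene lists were chosen with earlier results of these data known. Named genes were the members, 4 lists (other sirtuins, NAD genes, transcription factors, mature oligodendrocyte genes), low reference genes, the markers of each split and the 5 genes most alike to each member. Shares and levels are limited by counting error and by segmentation, and the depth differed between sections.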

Additional observations from a re-analysis of the deposited data

Results flagged for a closer look

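Sirt2 was singled out because its age change differed between 2 cell classes by a direct test. The change of 18 over 2 months in precursor-like cells minus that in oligodendrocyte-like cells was −1.16 ± 0.202 (SE, log2 scale, 2 sections per age), adjusted p = 8.66e-04 by edgeR. Without each section in turn it was −1.42 to −0.89, with adjusted p from 1.11e-04 to 0.0203. With every cell left out that had at least 3 detected markers of another class it was −0.42 ± 0.181, adjusted p = 0.360 by edgeR. Among Pdgfra-higher precursor-like cells alone it was 0.22 ± 0.255, adjusted p = 0.830 by edgeR.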

How the results depend on the processing

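Of 534 alternative values of 45 results, 469 kept their direction and side of the threshold, 43 changed sign, 11 lost their call, 9 gained one and 2 of the untested folds moved by more than their spread. The cause of these changes was not tested. Values are log2 differences by edgeR, Aged over Young unless stated.

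Sirt2 in precursor-like cells was −2.07 to −1.51 without each section. It lost its call in Pdgfra-higher cells (−0.38, and −0.35 without any cell with 3 markers of another class), in Gpr17-higher cells (−0.88), with the stage as a term (−0.66) and in cells with 3 or more oligodendrocyte markers (−0.56). Sirt2 in oligodendrocyte-like cells gained a call with mixed cells kept (−0.58), without the white matter zone (−0.52) and with the crossed block (−0.69), and was −0.96 to −0.35 without each section. The fold of Sirt2 in precursor-like over medium spiny neuron-like cells was 27.2, 6.93 with mixed cells kept and 11.6 without any cell with 3 markers of another class. That of Sirt3 in neuron-like over medium spiny neuron-like cells went from 2.11 to 2.05 with finer clusters.

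Per cell volume Sirt3 was −0.49 in oligodendrocyte-like, −0.32 in precursor-like, −0.39 in astrocyte-like, −0.21 in microglia-like, −0.18 in vascular-like, −0.26 in medium spiny neuron-like and −0.26 in neuron-like cells, and Sirt6 −0.10 in microglia-like cells. In the striatal zone Sirt3 was −0.084 in astrocyte-like, −0.46 in microglia-like and −0.060 in vascular-like cells. With thinned cells Sirt3 was −0.047 in precursor-like and −0.12 in microglia-like cells and Sirt6 0.094 in oligodendrocyte-like cells. With finer clusters astrocyte-like Sirt3 was −0.052, and with mixed cells kept microglia-like Sirt6 was −0.15. Precursor-like Sirt3 was −0.15 in Pdgfra-higher cells, −0.32 without any cell with 3 markers of another class, −0.54 with both, and −0.000886 in cells with under 3 oligodendrocyte markers.

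Without each section in turn, Sirt2 ran from −0.42 to 0.0091 in vascular-like, −0.25 to 0.14 in medium spiny neuron-like and −0.58 to 0.15 in neuron-like cells. Sirt3 ran from −0.028 to 0.21 in oligodendrocyte-like, −0.065 to 0.13 in astrocyte-like and −0.062 to 0.31 in microglia-like cells. Sirt6 ran from −0.26 to 0.085 in oligodendrocyte-like and −0.26 to 0.059 in medium spiny neuron-like cells. None of these passed. With mixed cells kept, Sirt2 ran from −0.49 to 0.065 in Pdgfra-higher and from −1.67 to −0.90 in Gpr17-higher cells, the latter without its call each time.

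The interaction of precursor-like with oligodendrocyte-like cells was −0.42 for Sirt2 and −0.28 for Sirt3 without any cell with 3 markers of another class, and 0.22 and −0.25 in Pdgfra-higher cells. That of Sirt3 ran from −0.16 to 0.21 without each section. White matter against other oligodendrocyte-like cells gave, on total transcripts, 0.17 for Sirt2, no longer called, and −0.41 for Sirt3, now called. With mixed cells kept it was −0.32 for Sirt3 and 0.32 for Sirt6, both called, and Sirt3 was 0.037 with the zone at 60%. Age by zone on total transcripts was −0.28 for Sirt2, now called, −0.067 for Sirt3 and −0.062 for Sirt6. Gpr17-higher against Pdgfra-higher cells with mixed cells kept was 0.084 for Sirt3 and 0.21 for Sirt6, and Sirt6 ran from −0.31 to 0.26 without each section.

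Counts of genes called moved with the settings: from 17 to between 1 and 51 in oligodendrocyte-like, from 33 to between 0 and 47 in precursor-like, from 10 to between 0 and 27 in astrocyte-like, from 2 to between 0 and 24 in microglia-like, and from 0 to at most 3, 18 and 5 in vascular-like, medium spiny neuron-like and neuron-like cells. In precursor-like cells 4 genes were called without any cell with 3 markers of another class, and 21 by DESeq2. The interaction went from 29 to between 0 and 57, white matter from 144 to 243 with mixed cells kept (97 to 149 without each section), age by zone from 58 to 27 on total transcripts, and the Gpr17 split from 65 to 37 with mixed cells kept and 23 without any cell with 3 markers of another class. With mixed cells kept and a section left out, Pdgfra-higher cells went from 8 to as few as 1 and Gpr17-higher cells from 4 to as few as 0.

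The replicate numbers do not establish a pairing, since the deviations of same-numbered sections correlated at −0.43 to −0.06. With the replicate block Sirt2 was −1.79 in precursor-like cells (adjusted p = 0.0138 by edgeR) and −0.69 in oligodendrocyte-like cells (adjusted p = 0.0597), with 6 and 13 genes called. The crossed block called 20 genes in precursor-like, 51 in oligodendrocyte-like, 18 in medium spiny neuron-like and 1 in vascular-like cells. With 2 sections per age and depth lowest in Aged replicate 1, the precision is limited, and Sirt6 in precursor-like cells rests on 12 to 38 transcripts a section.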
